A study of Homo sapiens with 6 samples.

Results

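The 10 genes described here encode ARID1A and 9 other subunits of SWI/SNF chromatin remodelling complexes: ARID1B, ARID2, PBRM1, SMARCA2, SMARCA4, SMARCB1, SMARCC1, SMARCD1 and SMARCE1. They were chosen by gene symbol, as subunits of a complex often disrupted in clear cell carcinoma. All 10 have a row among the 16910 genes of the deposited table, and all 10 passed the filter on low counts. RNA was sequenced from TOV21G, a cell line grown from a clear cell carcinoma of the ovary, in 6 libraries that form 3 groups of 2. The siGYS1 libraries are labelled as a knock down of GYS1, the muscle-type glycogen synthase, and the sip53 libraries as a knock down of p53. NC is labelled wild type and is read here as the control siRNA, although the labels do not spell this out. All groups are the same cell line, which is 1 tumour's derivative, and nothing in the labels says whether the libraries of a group came from separate cultures, so p-values measure only the spread between these libraries.

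SWI/SNF complexes use the energy of ATP to slide or evict nucleosomes and so open chromatin at enhancers and promoters. The canonical BAF and PBAF forms are built around 1 of a pair of ATPases, SMARCA4 (BRG1) or SMARCA2 (BRM). They share a core that includes SMARCB1, SMARCC1, SMARCD1 and SMARCE1. Other forms of the complex are not described here. The canonical BAF form carries ARID1A or its paralog ARID1B, whereas the PBAF form carries ARID2 and PBRM1 in their place. ARID1A is among the genes most often mutated in ovarian clear cell carcinoma, and TOV21G has been described as carrying truncating ARID1A mutations. The values below are transcript levels, so they say nothing of the protein.

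Each library had between 17425000 and 18097337 assigned reads. GYS1 was at 1.69 and 1.67 FPKM (fragments scaled by transcript length and library size) with siGYS1, 30.38 and 31.39 with sip53 and 28.57 and 27.26 with NC, so the siGYS1 libraries carry their label. The epithelial keratin genes KRT8 and KRT18 and the transcription factor gene PAX8, markers of this tumour type, were at 128 FPKM or more in every library, while other genes of the same marker list were low, with KRT7 at 4.52 to 6.87, EPCAM at 1.31 to 4.97, CDH1 at 0.73 to 2.14, KRT19 at 0.38 to 1.89, CDH6 at 0.22 to 1.26 and NAPSA at 0.32 to 0.47 FPKM. Summed FPKM of 6 fibroblast markers was 12.3 and 14.7 with siGYS1, 11.1 and 13.6 with sip53 and 14.8 and 22.0 with NC, mostly from COL1A1, and COL3A1 was at 0 to 0.02. Of the tested genes 19.7% (2602) changed between siGYS1 and NC (4662 with the replicate number as a block), 49.9% between sip53 and NC, and 43.4% between siGYS1 and sip53. Calls rest on edgeR's quasi-likelihood test with Benjamini-Hochberg adjustment over all 13235 tested genes and need an adjusted p below 0.05. Every adjusted p below is such a value unless another test is named, and log2 fold changes are edgeR estimates with their standard error (SE).

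One library effect bears on these genes. The deviation of log2 CPM (counts scaled to library size) in siGYS1 replicate 1 from the average of all libraries went up with transcript length (Spearman rho 0.54 across 11187 genes), and that of NC replicate 2 went down with it (-0.39), against -0.08 to 0.04 in the other 4 libraries. The length used is the one the deposited values imply, namely reads divided by FPKM and by the reads of the library. By that measure ARID2 (6888 bases), ARID1B (6136), SMARCC1 (6071), PBRM1 (5516) and ARID1A (5161) are longer than at least 86.2% of tested genes, while SMARCB1 (1129) is longer than only 15.2%.

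With siGYS1, 2 of the 10 genes rose against NC and 0 fell. The rises were in PBRM1 and SMARCD1, both modest. Among all tested genes 10.4% rose and 9.24% fell. At an unadjusted p under 0.05 edgeR counts 2 higher and 1 lower, SMARCA2, and the DESeq2 Wald test calls 2 higher and 0 lower. With the replicate number as a block 3 are higher, ARID1A being the third, and 1 is lower, SMARCA2. With sip53, 7 of the 10 genes fell and 1 rose against NC, where 26.5% of all tested genes fell and 23.4% rose. SMARCE1, SMARCC1, SMARCB1, SMARCA2, ARID1B, SMARCA4 and SMARCD1 fell, PBRM1 rose, and ARID1A and ARID2 did not pass, although ARID1A is an eighth fall under the block. The median log2 fold change of the 10 genes was -0.48 with sip53, against -0.03 over all tested genes, and 0.09 with siGYS1, against -0.01. Both comparisons share the NC libraries.

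**Figure D1:**
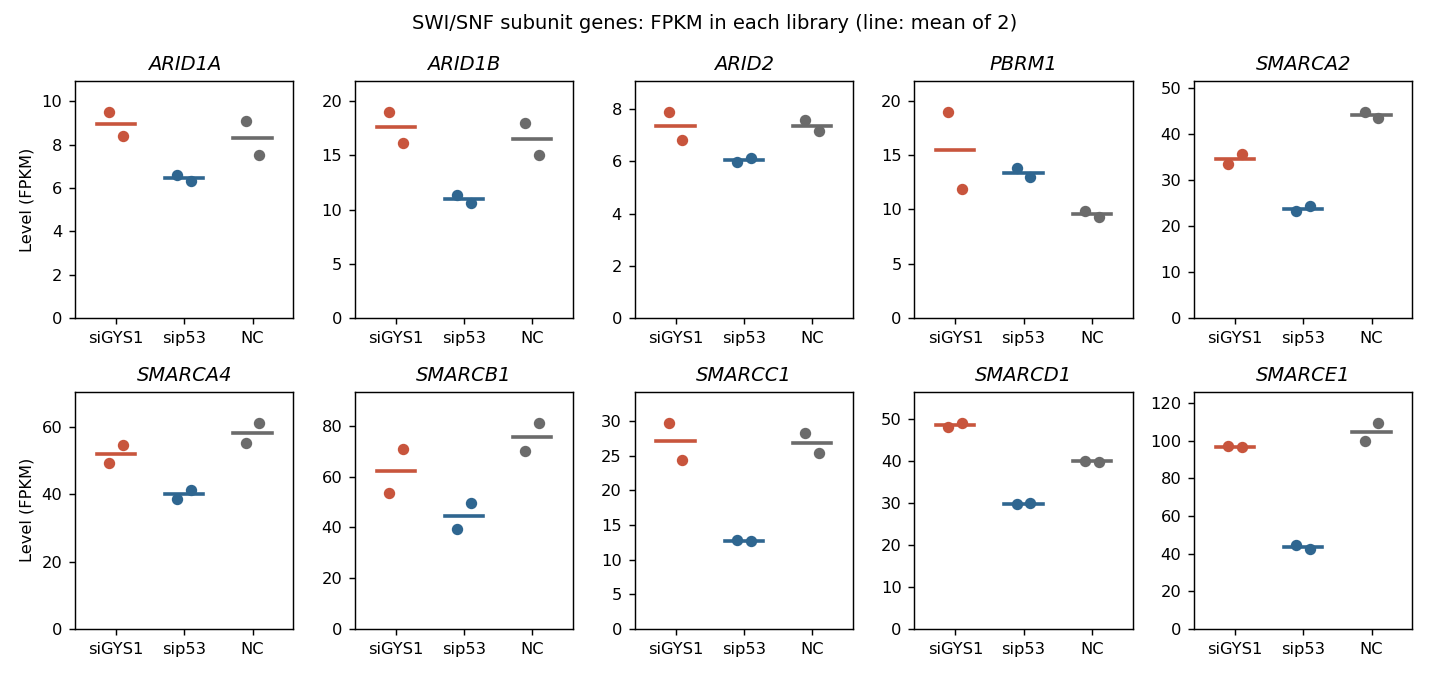
Level of each subunit gene in FPKM (vertical axes, each from 0) in the 2 libraries of siGYS1, sip53 and NC; points are libraries and lines the mean of 2. The sip53 points of SMARCE1, at 44.43 and 42.63, and of SMARCC1, at 12.77 and 12.64, lie far below those of siGYS1 and NC, while PBRM1 is lowest in NC at 9.86 and 9.28.

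**Figure D2:**
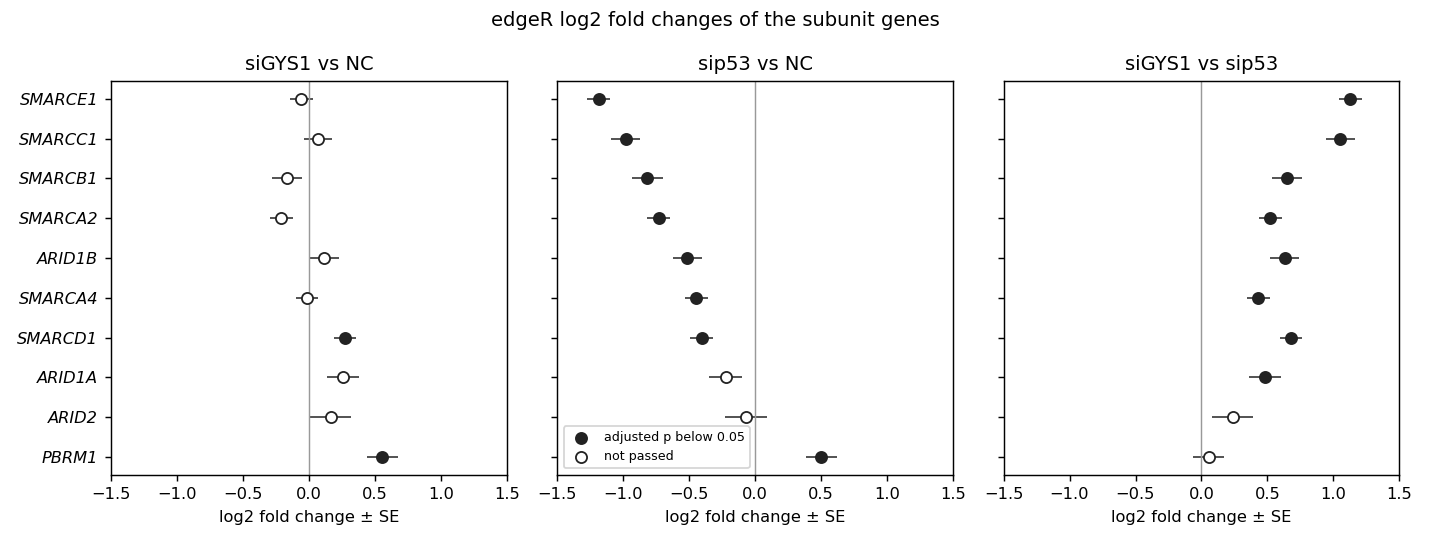
edgeR log2 fold change (horizontal axis) with its SE for each subunit gene in siGYS1 against NC, sip53 against NC and siGYS1 against sip53; filled points have an adjusted p below 0.05. With sip53, 7 genes lie left of 0 as filled points, from SMARCE1 at -1.18 to SMARCD1 at -0.41, and PBRM1 lies at 0.50.

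Promoters are shown for SMARCE1 and SMARCB1 as examples of genes that fell with sip53, for PBRM1 as the gene that rose, and for SMARCA2 because its annotated starts lie far apart. RefSeq windows (GRCh38.p14, 250 bases before to 50 after a start, 5′ to 3′ on the gene's strand) were matched for 8 of the 10 genes, as 14 windows, and not for ARID2 and SMARCC1. Capitals mark any match, on either strand, of the CCAAT box (CCAAT), the core of the GC box (GGGCGG), an ETS-type word (CCGGAAG), an E2F-type word (GCGGGAA), the CHR element of cell cycle genes (TTTGAA), the E-box (CACGTG) or the AP-1 word (TGACTCA), and matches may overlap. PBRM1 has 2 windows, of which the upstream one is printed, and SMARCA2 has 4, of which the first and the last are printed.
SMARCE1, chr17:40647769-40648068, minus strand: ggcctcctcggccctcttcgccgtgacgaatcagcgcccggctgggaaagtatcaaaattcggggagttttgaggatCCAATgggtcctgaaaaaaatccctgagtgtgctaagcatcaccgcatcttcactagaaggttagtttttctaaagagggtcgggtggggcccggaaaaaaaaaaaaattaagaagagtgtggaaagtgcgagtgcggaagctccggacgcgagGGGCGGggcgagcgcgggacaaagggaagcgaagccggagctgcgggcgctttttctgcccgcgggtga
SMARCB1, chr22:23786716-23787015, plus strand: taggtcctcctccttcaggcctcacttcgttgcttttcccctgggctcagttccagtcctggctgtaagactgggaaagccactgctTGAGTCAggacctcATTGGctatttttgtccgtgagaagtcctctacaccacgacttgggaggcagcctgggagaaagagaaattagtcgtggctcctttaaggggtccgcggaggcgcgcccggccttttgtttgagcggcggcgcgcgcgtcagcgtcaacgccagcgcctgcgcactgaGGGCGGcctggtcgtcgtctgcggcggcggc
PBRM1, chr3:52685864-52686163, minus strand: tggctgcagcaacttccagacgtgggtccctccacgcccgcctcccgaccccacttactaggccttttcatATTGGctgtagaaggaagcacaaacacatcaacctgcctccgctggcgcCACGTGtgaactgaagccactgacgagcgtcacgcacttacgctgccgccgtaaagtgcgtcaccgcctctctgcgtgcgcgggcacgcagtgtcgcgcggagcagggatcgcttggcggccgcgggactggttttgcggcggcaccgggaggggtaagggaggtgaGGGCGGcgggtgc
SMARCA2 first start, chr9:2015097-2015396, plus strand: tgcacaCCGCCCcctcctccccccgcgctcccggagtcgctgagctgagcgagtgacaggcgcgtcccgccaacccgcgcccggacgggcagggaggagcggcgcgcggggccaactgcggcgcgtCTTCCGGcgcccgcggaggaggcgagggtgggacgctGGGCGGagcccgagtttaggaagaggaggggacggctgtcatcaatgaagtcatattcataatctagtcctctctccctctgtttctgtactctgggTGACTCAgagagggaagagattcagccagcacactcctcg
SMARCA2 last start, chr9:2158214-2158513, plus strand: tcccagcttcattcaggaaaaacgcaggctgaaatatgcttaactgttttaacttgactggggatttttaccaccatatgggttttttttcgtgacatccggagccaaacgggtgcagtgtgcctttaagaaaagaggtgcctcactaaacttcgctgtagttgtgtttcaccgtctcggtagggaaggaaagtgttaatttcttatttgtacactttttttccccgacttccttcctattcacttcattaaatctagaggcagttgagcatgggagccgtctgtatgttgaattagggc

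GGGCGG, the core of the GC box, was in 9 of the 14 windows, against 45% of the 35116 windows counted, which leave out chromosome 8. CCAAT was in 4 of 14, against 34.6%. It was in the windows of SMARCE1 and SMARCB1 and in 1 window of ARID1B, genes that fell with sip53. It was also in 1 window of PBRM1, which rose. TGACTCA, the AP-1 word, was in the SMARCB1 window and the first of SMARCA2, against 4.95% of the windows counted. The E-box CACGTG was in the PBRM1 window printed above and no other of the 14, against 7.26%. CCGGAAG, an ETS-type word, was in 1 of the 14, the first SMARCA2 window, against 10.3%. TTTGAA was in 0 of the 14, against 15.2% of the windows counted. The E2F-type word GCGGGAA was likewise in 0, against 6.55%. The last SMARCA2 window holds none of the 7 words and has 43% G and C, against 66.7% in the first.

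The ATPase genes come first. SMARCA4 (ENSG00000127616, chr19:10960825-11079426 in GENCODE 29 on GRCh38) was at 49.36 and 54.77 FPKM with siGYS1, 38.64 and 41.35 with sip53 and 55.38 and 61.29 with NC. The sip53 libraries lay below all others. With sip53 it fell to 73.4% of NC (log2 fold change -0.45, SE 0.09, adjusted p = 0.00203). With siGYS1 it was at -0.01 (SE 0.09, 95% interval -0.21 to 0.18, adjusted p = 0.922), and the siGYS1 and NC libraries overlapped in CPM.

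SMARCA2 (ENSG00000080503, chr9:1980290-2193624) was at 33.59 and 35.61 FPKM with siGYS1, 23.28 and 24.28 with sip53 and 44.82 and 43.55 with NC. The groups did not overlap. With sip53 it fell to 60.3% of NC (log2 fold change -0.73, SE 0.09, adjusted p = 0.000118). With siGYS1 it was at -0.21 on reads (SE 0.09, adjusted p = 0.116) and did not pass, but it passed with the replicate block (-0.21, adjusted p = 0.0395), and limma on log2(FPKM + 1) called it lower (-0.34, adjusted p = 0.0313). The reads behind these values were 1405 and 1364 with siGYS1 against 1703 and 1677 with NC, and the implied length was 2400 and 2130 bases with siGYS1 against 2126 and 2128 with NC, so the FPKM and read scales differ for siGYS1 replicate 1.

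The implied length of SMARCA2 is short for the gene. Its median of 2180 bases is 30.9% of the longest annotated coding transcript (7061 bases), against 71.4% for SMARCA4 (4133 of 5791 bases). SMARCA2 is not alone in this, since SMARCB1 was at 21.7% and SMARCE1 at 32.2%. The rest of the subunit genes were at 56.7% (ARID1B) or more. In GENCODE 29, 22 of 42 coding SMARCA2 transcripts start in the downstream part of the gene, past its midpoint, and these measure 616 to 2942 bases. Which of these transcripts carried the reads was not tested, since the table gives 1 value per gene. Per length, SMARCA2 stood at 0.68 and 0.65 times SMARCA4 with siGYS1, 0.60 and 0.59 times with sip53, and 0.81 and 0.71 times with NC. On reads the ratio was 0.37 and 0.32 with siGYS1, 0.33 and 0.33 with sip53 and 0.42 and 0.38 with NC. Both knockdowns lay below NC on both scales; with 2 libraries a group an exact permutation test cannot go below 0.33, and the ratios were not tested by another method.

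**Figure D3:**
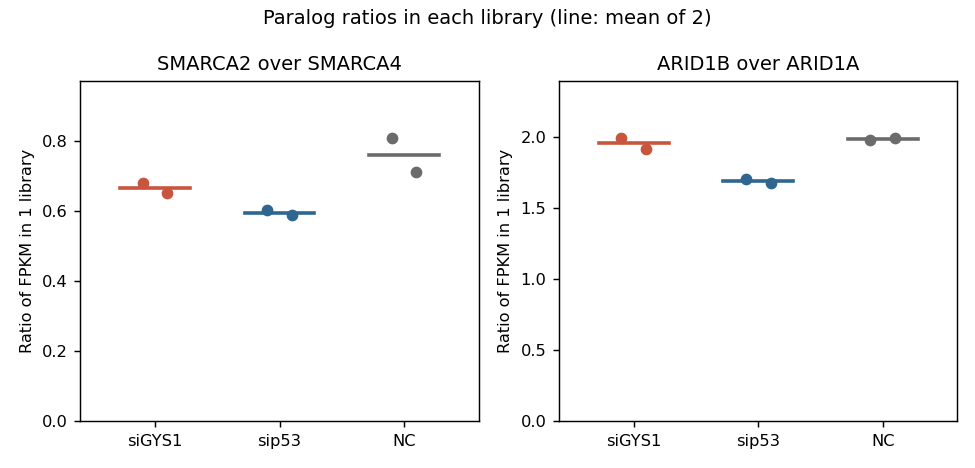
Ratio of FPKM within each library (vertical axes, from 0) of SMARCA2 over SMARCA4 and of ARID1B over ARID1A for siGYS1, sip53 and NC; points are libraries and lines the mean of 2. SMARCA2 over SMARCA4 is 0.68 and 0.65 with siGYS1, 0.60 and 0.59 with sip53 and 0.81 and 0.71 with NC.

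Next are the large ARID subunits, which direct the complex to DNA and define its form. ARID1A (ENSG00000117713, chr1:26693236-26782110) was at 9.51 and 8.42 FPKM with siGYS1, 6.62 and 6.33 with sip53 and 9.10 and 7.53 with NC. The sip53 libraries were lowest, and siGYS1 and NC overlapped. Its read counts were 935 and 780 with siGYS1, 614 and 600 with sip53 and 814 and 700 with NC. ARID1A did not pass with siGYS1 (log2 fold change 0.26, SE 0.12, 95% interval -0.01 to 0.53, adjusted p = 0.160) or with sip53 (-0.22, SE 0.12, 95% interval -0.50 to 0.05, adjusted p = 0.157). With the replicate number as a block it passed in both, as higher with siGYS1 (0.26, adjusted p = 0.0254) and lower with sip53 (-0.22, adjusted p = 0.0372). Between siGYS1 and sip53 it was 1.40-fold higher (log2 0.48, SE 0.12, adjusted p = 0.0102). Leaving out either sip53 library ends that call, with an adjusted p of 0.0655 without replicate 1 and 0.0838 without replicate 2. With offsets corrected for length, the value for sip53 passed (-0.25, adjusted p = 0.0116). The value for siGYS1 did not pass with that correction, either without the block (0.13, adjusted p = 0.216) or with it (0.13, adjusted p = 0.129). With siGYS1 it passed without siGYS1 replicate 2 (0.42, adjusted p = 0.00711), and was 0.10 without siGYS1 replicate 1.

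ARID1B (ENSG00000049618, chr6:156776020-157210779), the paralog that can take the place of ARID1A, was at 18.98 and 16.15 FPKM with siGYS1, 11.30 and 10.62 with sip53 and 18.01 and 15.04 with NC. With sip53 it fell to 70.0% of NC (log2 fold change -0.51, SE 0.11, adjusted p = 0.00378), and with siGYS1 it was at 0.11 (SE 0.11, 95% interval -0.13 to 0.36, adjusted p = 0.493). Per length ARID1B stood at 2.00 and 1.92 times ARID1A with siGYS1, 1.71 and 1.68 times with sip53 and 1.98 and 2.00 times with NC. On reads it was 2.15 and 2.27 with siGYS1, 1.94 and 2.05 with sip53 and 2.44 and 2.44 with NC. On both scales the ratio was lower in both sip53 libraries than in the other 4. The fold changes of ARID1A and ARID1B with sip53, -0.22 and -0.51, were not tested against each other.

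ARID2 (ENSG00000189079, chr12:45729665-45908040), the ARID subunit of PBAF, was at 7.88 and 6.79 FPKM with siGYS1, 5.96 and 6.12 with sip53 and 7.58 and 7.14 with NC. It passed in none of the 3 comparisons by edgeR, with log2 fold changes of 0.17 (SE 0.16, adjusted p = 0.486) for siGYS1 against NC, -0.07 (SE 0.16, adjusted p = 0.733) for sip53 against NC and 0.24 (SE 0.16, adjusted p = 0.250) for siGYS1 against sip53. At an unadjusted p under 0.05 it was likewise in none. Its 2 siGYS1 libraries, with 1074 and 765 reads, differed more than those of any other of the 10 genes, by 0.53 on the log2 CPM scale. Without siGYS1 replicate 2 it is higher with siGYS1 than with NC (0.43, adjusted p = 0.00625) and than with sip53 (0.48, adjusted p = 0.00159); without siGYS1 replicate 1 both values are below 0, at -0.12 and -0.05.

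PBRM1 (ENSG00000163939, chr3:52545352-52685917), the polybromo subunit of PBAF that reads acetylated histones, was the one of the 10 genes above NC in both knockdowns. It had 18.95 and 11.88 FPKM with siGYS1, 13.76 and 12.98 with sip53 and 9.86 and 9.28 with NC. Its reads were 1493 and 1204 with siGYS1, 1304 and 1267 with sip53 and 990 and 948 with NC. On both scales every knockdown library was above both NC libraries. PBRM1 rose 1.47-fold with siGYS1 (log2 0.56, SE 0.12, adjusted p = 0.0114) and 1.42-fold with sip53 (log2 0.50, SE 0.12, adjusted p = 0.00624), and siGYS1 against sip53 was at 0.05 (SE 0.12, 95% interval -0.21 to 0.32, adjusted p = 0.739). Without siGYS1 replicate 1 the value for siGYS1 is 0.37. With offsets corrected for length the value for siGYS1 is 0.41 (adjusted p = 0.00118) and that for sip53 is 0.46 (adjusted p = 0.000134). The rise with siGYS1 does not pass without NC replicate 2 (0.52, adjusted p = 0.0798) or in limma on log2(FPKM + 1) (adjusted p = 0.0684), and the rise with sip53 not without sip53 replicate 1 (0.48, adjusted p = 0.0582) or in that limma fit (adjusted p = 0.0867). In siGYS1 replicate 1 the implied length of PBRM1 was 4521 bases, against 5282 to 5645 in the other 5 libraries, so its FPKM exceeds what its reads alone give. PBRM1 shares 146 exon bases with SMIM4 on the opposite strand, and the sources used here do not give whether the counting used strand. SMIM4 had 57 and 81 reads with siGYS1, 111 and 141 with sip53 and 80 and 95 with NC.

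Of the core subunits, SMARCE1 and SMARCC1 fell most with sip53. SMARCE1 (ENSG00000073584, chr17:40624962-40648864), an HMG-box subunit that binds DNA, was at 97.12 and 96.70 FPKM with siGYS1, 44.43 and 42.63 with sip53 and 99.61 and 109.59 with NC. It fell to 44.0% of NC with sip53 (log2 fold change -1.18, SE 0.09, adjusted p = 6.14e-06) and was at -0.06 with siGYS1 (SE 0.08, 95% interval -0.25 to 0.13, adjusted p = 0.674). Between siGYS1 and sip53 it was 2.19-fold higher (log2 1.13, SE 0.09, adjusted p = 1.04e-05). Its read counts are fractional in all 6 libraries, and it shares 3697 exon bases on the same strand with ENSG00000264058, an annotated coding gene, so reads may be split between them. That gene also fell with sip53 (to 35.4% of NC, adjusted p = 0.000396).

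SMARCC1 (ENSG00000173473, chr3:47585272-47782106), the scaffold protein also known as BAF155, was at 29.77 and 24.43 FPKM with siGYS1, 12.77 and 12.64 with sip53 and 28.22 and 25.45 with NC. The sip53 values sat well below the other 4, which overlapped. It fell to 50.6% of NC with sip53 (log2 fold change -0.98, SE 0.11, adjusted p = 7.85e-05), was at 0.07 with siGYS1 (SE 0.11, 95% interval -0.17 to 0.31, adjusted p = 0.676), and was 2.08-fold higher with siGYS1 than with sip53 (log2 1.05, SE 0.11, adjusted p = 6.63e-05). It has 1 annotated coding transcript, of 6375 bases, and its implied length was 6062 to 6078 bases in every library. Its paralog SMARCC2 (BAF170) went the same way with sip53 by a smaller value: it was at 22.44 and 22.88 FPKM with sip53 and 31.55 and 29.48 with NC (log2 fold change -0.34, SE 0.09, adjusted p = 0.0123). SMARCC2 was named after its values were seen.

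SMARCB1 (ENSG00000099956, chr22:23786931-23838008), the INI1 subunit that contacts the nucleosome and is lost in rhabdoid tumours, was at 53.42 and 70.70 FPKM with siGYS1, 39.34 and 49.71 with sip53 and 69.99 and 81.21 with NC. Its reads were 1171 and 1426 with siGYS1, 797 and 838 with sip53 and 1415 and 1660 with NC. With sip53 it fell to 56.8% of NC (log2 fold change -0.82, SE 0.11, adjusted p = 0.000311). The sip53 libraries differ more in FPKM than in reads, since the implied length was 1129 and 935 bases. With siGYS1 it was at -0.17 (SE 0.11, 95% interval -0.42 to 0.08, adjusted p = 0.319), with overlapping groups. SMARCB1 shares 2923 exon bases with DERL3 on the opposite strand, which had 0 to 2 reads in every library.

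SMARCD1 (ENSG00000066117, chr12:50084972-50100712), the BAF60A subunit that links the complex to transcription factors, was the one of the 10 genes that passed in opposite directions in the knockdowns. It had 48.17 and 49.09 FPKM with siGYS1, 29.73 and 29.90 with sip53 and 39.89 and 39.82 with NC. Within each group the libraries were close and the 3 groups did not overlap. With sip53 it fell to 75.4% of NC (log2 fold change -0.41, SE 0.08, adjusted p = 0.00299), and with siGYS1 it rose 1.21-fold (log2 0.27, SE 0.08, adjusted p = 0.0474). That rise lies close to the threshold and is lost in 8 of 16 alternatives, among them leaving out siGYS1 replicate 1 (adjusted p = 0.0649), either sip53 library (0.114 and 0.115), NC replicate 1 (0.138) or NC replicate 2 (0.265), at log2 values of 0.25 to 0.29. Between siGYS1 and sip53 SMARCD1 was 1.60-fold higher (log2 0.68, SE 0.08, adjusted p = 0.000183).

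Set directly against each other, siGYS1 was above sip53 in 8 of the 10 genes and below in 0, where 22.5% of all tested genes were higher and 20.9% lower. The 8 are the 7 genes that fell with sip53 against NC, and ARID1A. Both comparisons use the same sip53 libraries, so this count is not separate from those falls. Neither edgeR at an unadjusted p under 0.05 nor the DESeq2 Wald test gives a gene that was lower. Besides the genes given above, SMARCB1 was at 0.65 (SE 0.11, adjusted p = 0.00149), ARID1B at 0.63 (SE 0.11, adjusted p = 0.00146), SMARCA2 at 0.52 (SE 0.09, adjusted p = 0.00112) and SMARCA4 at 0.43 (SE 0.09, adjusted p = 0.00293). PBRM1 and ARID2, the PBAF-specific genes among the 10, did not pass.

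The falls with sip53 stood beside other shifts in the same libraries. Summed FPKM of the 5 replication-dependent histone genes in the table was 66.4 and 51.8 with sip53 and 31.8 and 41.3 with NC. Transcripts of this class mostly lack a poly(A) tail, but whether those of these 5 genes do was not tested. The sum is therefore not read as a sign of RNA quality. H2BC4, H2BC5 and H2BC21 made most of the higher sum. H2AC6 was at 18.96 and 16.26 FPKM with sip53 and 18.80 and 20.61 with NC. Summed FPKM of 3 endothelial markers was 1.53 and 0.93 with sip53 and 0.48 and 0.35 with NC, and that of 4 leukocyte markers was 7.51 and 6.79 with sip53 and 5.15 and 5.03 with NC, mostly from CD68. Of the endothelial markers VWF was at 0 to 0.01 in every library. By edgeR on reads PECAM1 and CDH5 rose with sip53, both at 1 FPKM or less in every library. COL1A1 and PDGFRA of the fibroblast markers fell, while DCN rose. DCN had 70 and 57 reads with sip53 and 3 and 4 with NC. On FPKM it was at 4.47 and 3.12 with sip53 and 0.31 and 6.97 with NC, so the groups overlapped on that scale. Of 9 tested clear cell and epithelial markers 4 fell and 1 rose with sip53, where 26.5% of all tested genes fell and 23.4% rose. The summed FPKM of the 10 in the table was 541 and 530 with sip53 and 661 and 678 with NC. The part of these shifts in the falls was not tested. In bulk RNA, fewer cells of a state and less RNA per cell cannot be told apart. The 7 falls passed in each of the 16 alternatives, the length-corrected fit and each left-out library included.

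Within a group, the 10 genes differed by length between libraries. In siGYS1, replicate 1 exceeded replicate 2 by 0.23 to 0.53 (log2 CPM) in ARID1A, ARID1B, ARID2, PBRM1 and SMARCC1, the 5 longest, while SMARCB1 was lower by 0.24 in replicate 1 and SMARCA4 by 0.12. In NC the same 5 genes were higher in replicate 1 by 0.07 to 0.22 and SMARCB1 was lower by 0.23. In sip53 none of the 10 differed by more than 0.10. Across the 10 genes Pearson's r of this difference with log2 length was 0.83 in siGYS1, 0.13 in sip53 and 0.83 in NC, as a description over genes that share their libraries.

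**Figure D4:**
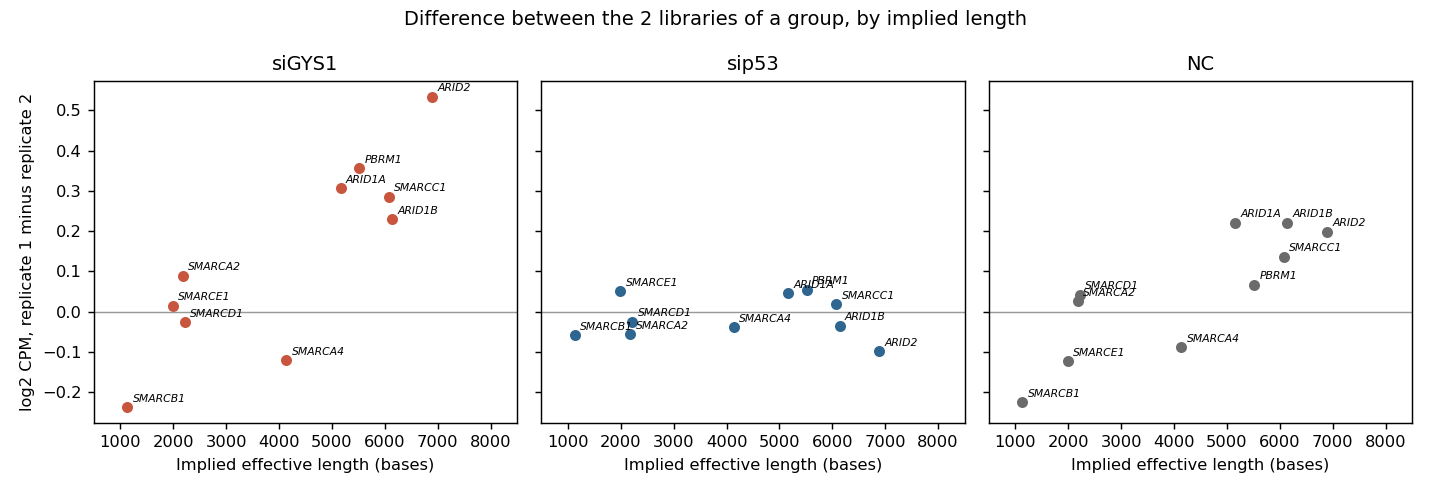
Difference in log2 CPM between replicate 1 and replicate 2 (vertical axis) against the implied effective length in bases (horizontal axis) of the 10 subunit genes, in siGYS1, sip53 and NC. In siGYS1 the 5 longest genes lie at 0.23 to 0.53 and SMARCB1 at -0.24, while in sip53 all 10 lie within 0.10 of 0.

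Ordered by mean FPKM, SMARCE1 led with siGYS1 (96.9 ± 0.297, SD, n = 2) and NC (104.6 ± 7.06), followed by SMARCB1 (62.1 ± 12.2 with siGYS1 and 75.6 ± 7.93 with NC) and SMARCA4 (52.1 ± 3.83 and 58.3 ± 4.18). With sip53 SMARCB1 (44.5 ± 7.33) and SMARCE1 (43.5 ± 1.27) were level, with overlapping libraries. ARID1A and ARID2 were last in all 3 groups, at 8.97 ± 0.771 and 7.34 ± 0.771 FPKM with siGYS1, 6.48 ± 0.205 and 6.04 ± 0.113 with sip53 and 8.32 ± 1.11 and 7.36 ± 0.311 with NC. They overlapped in NC. PBRM1 stood eighth with siGYS1 and NC but sixth with sip53, at 13.4 ± 0.552, ahead of SMARCC1 at 12.7 ± 0.0919 and ARID1B at 10.96 ± 0.481. Other neighbours whose libraries overlapped were SMARCB1 and SMARCA4, and ARID1B and PBRM1, both with siGYS1. ARID1A lay above 41.2% of tested genes with siGYS1, 35.9% with sip53 and 39.2% with NC.

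Other SWI/SNF subunit genes gave mixed counts. Of 21 listed, 20 were in the table and 18 were tested, and DPF3 was among the low ones, with 2 to 7 reads per library. With siGYS1, 1 rose, SS18L1 (0.37, adjusted p = 0.0266), and 3 fell (median log2 fold change -0.01), where 10.4% of all tested genes rose and 9.24% fell. SMARCD3, the BAF60C paralog of SMARCD1, known from muscle and heart, was at 3.89 and 3.48 FPKM with siGYS1 and 7.06 and 7.59 with NC (-0.91, SE 0.15, adjusted p = 0.00369). DPF2, a histone-reading subunit of canonical BAF, was at 15.32 and 19.19 FPKM with siGYS1 and 28.54 and 29.43 with NC (-0.77, SE 0.10, adjusted p = 0.00123). BCL7B fell by 0.71 (SE 0.11, adjusted p = 0.00294). Each of these 3 genes had both siGYS1 libraries below both NC libraries.

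With sip53, 2 of the 18 rose, SS18 (0.38, adjusted p = 0.00663) and SS18L1 (0.40, adjusted p = 0.00671), and 5 fell (median -0.09), where 23.4% of all tested genes rose and 26.5% fell. The share that fell is near that of all genes. Library size alone and both limma fits give 8 falls, and the block gives 4 rises and 6 falls. SS18 and SS18L1, a pair of related subunits, were named after their values were seen, as was DPF2 here (-0.30, adjusted p = 0.0328). BCL7C was at 40.33 and 50.94 FPKM with sip53 and 68.76 and 86.48 with NC (-0.64, SE 0.15, adjusted p = 0.00521). ACTL6A, the actin-related BAF53A subunit of proliferating cells, was at 34.71 and 35.33 FPKM with sip53 and 54.67 and 55.25 with NC (-0.54, SE 0.09, adjusted p = 0.000637). BRD7, a bromodomain subunit of PBAF, fell by 0.54 (SE 0.09, adjusted p = 0.000725). Among PBAF genes PBRM1 thus rose with sip53 while BRD7 fell and ARID2 did not pass. The 5 falls are 2 without sip53 replicate 1 and 3 without sip53 replicate 2, and the 2 rises are 0 without sip53 replicate 1 and 4 without siGYS1 replicate 2, whereas the 1 rise with siGYS1 is 2 without siGYS1 replicate 2 and 0 without any other single library.

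The counts in other remodelling families are to be read against the same shares of all tested genes. Of 11 ISWI genes, 0 passed with siGYS1 in edgeR (6 at an unadjusted p under 0.05, all higher, 5 higher in DESeq2, 7 higher with the block, 5 higher and 1 lower with length-corrected offsets, and without a library 1 for siGYS1 replicate 1, 2 for NC replicate 1 and 8 for siGYS1 replicate 2), and the smallest p belonged to BAZ1A (0.34, SE 0.11, adjusted p = 0.0509). With sip53, 3 rose and 5 fell (5 and 5 with the block). BAZ1A (-0.89), BAZ1B (-0.42) and CHRAC1 (-0.70) were among the falls and BAZ2A (0.54) and POLE3 (0.41) among the rises, and were named for sip53 after their values were seen. The ISWI ATPase genes SMARCA1 (22.99 and 20.90 FPKM with sip53, 50.36 and 44.60 with NC; -1.02, SE 0.10, adjusted p = 3.34e-05) and SMARCA5 (14.83 and 13.85 with sip53, 30.30 and 28.54 with NC; -0.94, SE 0.10, adjusted p = 4.79e-05) were the other falls. CECR2 rose by 1.81 (SE 0.28, adjusted p = 0.000593) on 86 and 82 reads with sip53 against 26 and 25 with NC. Of 17 tested CHD and NuRD genes, 5 rose and 1 fell with siGYS1, and 3 rose and 3 fell with sip53. Leaving out 1 library gives 1 to 6 rises and 0 or 1 fall with siGYS1 (1 and 0 without NC replicate 2), and 2 or 3 rises and 0 to 4 falls with sip53 (2 and 0 without sip53 replicate 1). The 3 falls with sip53 are 6 with library size alone, in both limma fits and with the block, 7 with length-corrected offsets, and 1 in DESeq2 and without a filter, and the 5 rises with siGYS1 are 2 in both limma fits. GATAD2A (0.39), GATAD2B (0.35) and CHD2 (0.45) were among the rises with siGYS1, and CHD3 (-0.33), GATAD2B (-0.30) and MTA2 (-0.26) were the falls with sip53, all named after their values were seen. CHD7 was at 10.70 and 8.65 FPKM with siGYS1, 5.90 and 5.72 with sip53 and 5.15 and 4.30 with NC (siGYS1 1.09, SE 0.12, adjusted p = 0.00052; sip53 0.40, SE 0.12, adjusted p = 0.0235), MBD3 fell with siGYS1 (-0.59, SE 0.11, adjusted p = 0.00666), and GATAD2A (0.54, SE 0.09, adjusted p = 0.00076) and CHD2 (0.53, SE 0.11, adjusted p = 0.00382) rose with sip53. CHD1 was at 0.54 with siGYS1 (SE 0.17, adjusted p = 0.0474).

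Of 21 genes of INO80, SRCAP and EP400 complexes, 1 rose (YY1, 0.27, SE 0.08, adjusted p = 0.043) and 1 fell with siGYS1, and 2 rose (YY1 and UCHL5, named after their values were seen) and 6 fell with sip53. Without 1 library the rise and the fall with siGYS1 become 0 to 3 and 0 to 5 (0 and 0 without NC replicate 2 or either sip53 library, 3 and 5 without siGYS1 replicate 2), and the falls with sip53 3 to 8 and the rises 0 to 2 (0 and 3 without sip53 replicate 1). With siGYS1 the block gives 2 rises and 8 falls, library size alone 0 and 3, both limma fits 0 and 2, and length-corrected offsets 3 and 2. With sip53 library size alone gives 0 rises and 8 falls, and the block 2 and 9. VPS72, which chaperones the variant histone H2A.Z, fell in siGYS1 (-0.39, SE 0.09, adjusted p = 0.0192) and in sip53 (-0.87, SE 0.10, adjusted p = 7.03e-05), and ACTR6 (-0.75, SE 0.11, adjusted p = 0.000412) and MCRS1 (-0.52, SE 0.11, adjusted p = 0.0037) fell with sip53. Polycomb repressive complex 2 (PRC2) is the histone methyltransferase that opposes SWI/SNF at many genes. Of its 11 genes, 2 were up and 1 down with siGYS1, and 0 up and 5 down with sip53. At an unadjusted p under 0.05 and in DESeq2, 0 were up with sip53 as well. EED and EZH1, named after their values were seen, complete the 5. Library size alone gives 7 falls with sip53, the block 6, length-corrected offsets 6 and DESeq2 4. The block with length-corrected offsets gives 1 rise and 7 falls. The 5 falls are 3 without either sip53 library or NC replicate 1, and the 2 rises with siGYS1 are 0 without NC replicate 2, 1 without siGYS1 replicate 1 or either sip53 library and 3 without siGYS1 replicate 2. RBBP4, a histone-binding subunit shared by several complexes, was at 52.91 and 47.11 FPKM with siGYS1, 110.08 and 115.05 with sip53 and 128.71 and 125.90 with NC (siGYS1 -1.33, SE 0.09, adjusted p = 4.31e-05). MTF2 (0.47, SE 0.09, adjusted p = 0.00648) and JARID2 (0.34, SE 0.10, adjusted p = 0.035) rose with siGYS1. EZH2, the catalytic subunit, was at 11.44 and 12.67 FPKM with sip53 and 26.06 and 25.02 with NC (-0.96, SE 0.10, adjusted p = 4.29e-05), and PHF19 (-0.48, SE 0.10, adjusted p = 0.00247) and SUZ12 (-0.45, SE 0.11, adjusted p = 0.00559) fell too. With siGYS1 EZH2 was at 0.06 (SE 0.09, adjusted p = 0.688).

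**Figure D5:**
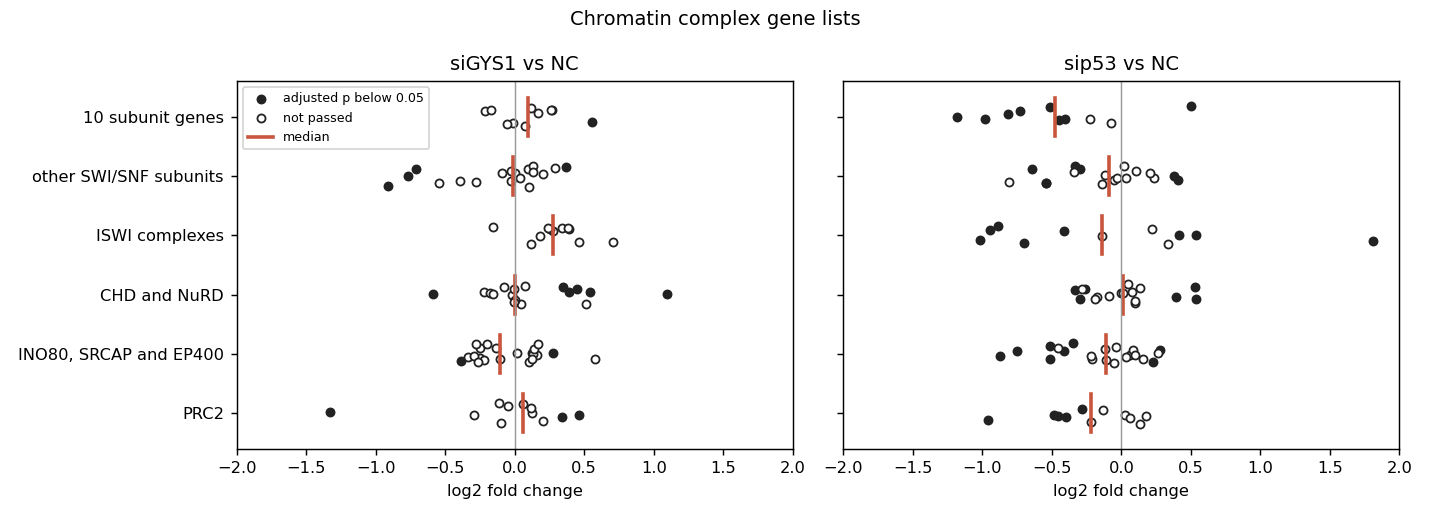
edgeR log2 fold change (horizontal axis) of each tested gene in the 10 subunit genes and 5 further lists of chromatin complexes, for siGYS1 against NC and sip53 against NC; filled points have an adjusted p below 0.05 and the coloured line is the list's median. The median of the 10 subunit genes lies at 0.09 with siGYS1 and -0.48 with sip53, and that of the other SWI/SNF subunits at -0.01 and -0.09.

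Over the 6 libraries the genes whose log2 CPM was most like that of ARID1A were SYNE1 (Pearson's r 0.9988), RO60 (0.9983) and AMOT (0.9972), and those most like SMARCA4 were C19orf54 (0.9994), KIF22 (0.9990) and TNIP2 (0.9981), of 11802 genes compared. With 3 groups of 2 libraries and so many genes, such values are a description of pattern on the CPM scale. On FPKM SYNE1 was at 16.81 and 17.73 with siGYS1 and 17.78 and 19.09 with NC. ARID1A ran the other way between replicates (9.51 and 8.42, and 9.10 and 7.53), as RO60 and AMOT did. In NC C19orf54 was at 6.70 and 6.14 against 55.38 and 61.29 for SMARCA4, while KIF22 and TNIP2 ran the same way as SMARCA4.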

How the data were processed

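RNA-seq of 6 TOV21G libraries was analysed, with groups taken from the sample titles (siGYS1, sip53 and NC, 2 each). Per the file headers the authors deposited a read count and an FPKM per gene and library. The authors' read counts are treated as estimated counts, because a share of 16.8% to 18.1% in each library is not whole (tolerance 1e-09), and they were rounded here before fitting. The FPKM of the deposited table equal the read count divided by the library's reads and by an effective length that can differ between libraries, and that implied length was computed back. The submitters' processing notes list aligners (HISAT2, STAR, TopHat), counters (Salmon, featureCounts, HTSeq), trimming and quality tools (cutadapt, Trimmomatic, FastQC) and edgeR and DESeq2 with no version or role. They also list mm10, a mouse build, but the identifiers are human, and 16830 of 16910 are in GENCODE 29. The sources used here do not give which aligner, counter or build made the table.

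The principal fit of the counts used edgeR 4.0.16 under R 4.3.3, filterByExpr (minimum count 10, leaving 13235 genes), TMM, glmQLFit and glmQLFTest, with group as the sole term over all 6 libraries (3 residual degrees of freedom) and Benjamini-Hochberg adjustment over all tested genes. SE is the absolute log2 fold change over the square root of F, and 95% intervals use the fit's total degrees of freedom. The procedure was tested on simulated counts. Alternatives used DESeq2 1.42.0, limma 3.58.1 on log2(FPKM + 1) or log2(FPKM + 0.1), which understates folds of low genes, other scaling, filters and sample sets, a replicate block, and offsets corrected for implied length by a loess per library (span 0.5). The difference of replicate 1 and replicate 2, over 11187 genes, correlated between groups at 0.59 (siGYS1 and NC), 0.12 (sip53 and NC) and 0.27 (siGYS1 and sip53), each above 0.1. Such a pairing comes from the data, with 2 numbers, since no label says what a number marks. The principal fit therefore left the replicate number out, and its p-values are unpaired. Pairing by number entered only through the replicate block among the alternatives. Libraries of a group differed beyond counting noise (chi-square per degree of freedom 3.36 to 15.4), so none was counted as a duplicate. The members, lists and alternatives were chosen with earlier results of these data known. Named genes are the 10 members, GYS1, up to 3 genes per chromatin list and comparison against NC that passed and changed most in size (or, with none, the gene of smallest p), and the 3 genes most like ARID1A and SMARCA4. The level of the other knockdown target is not reported here.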

Additional observations from a re-analysis of the deposited data

How the results depend on the processing

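Of 480 values for the 10 genes under 16 alternatives (30 gene and comparison pairs), 432 kept their direction and side of the threshold, 16 lost the call, 11 gained one and 21 changed sign. All sign changes were in values that did not pass. The 7 falls with sip53 kept their call in all 16. Against 2 genes higher with siGYS1, library size alone gives 1, limma on log2(FPKM + 1) 1, limma on log2(FPKM + 0.1) 0 and a fit of both compared groups 1, and leaving out 1 library gives 0 (NC replicate 2) to 4 (siGYS1 replicate 2). Against 0 lower, each limma fit gives 1, and so does the replicate block, with and without length correction (SMARCA2). Against 1 higher with sip53, each limma fit gives 0, and leaving out 1 library 0 (sip53 replicate 1) to 1. The cause was not tested.

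For siGYS1 against NC the 2602 changed genes become 1577 when only both groups are fitted, 4142 with length-corrected offsets, 4662 with the replicate block, 5107 with both, and 926 (without NC replicate 2) to 4260 (without siGYS1 replicate 2) with 1 library left out. For sip53 against NC, 6605 become 4271 to 7621, and for siGYS1 against sip53, 5745 become 3416 to 6337, both lowest without sip53 replicate 1. The replicate block changed the calls of ARID1A with siGYS1 and with sip53 and of SMARCA2 with siGYS1, and no other call of the 10 genes.

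The sign changes for siGYS1 against NC were as follows. Length-corrected offsets, without and with the replicate block, gave -0.0508 and -0.0510 for ARID1B, -0.0343 and -0.0346 for ARID2 and -0.0961 and -0.0960 for SMARCC1. Leaving out 1 library gave -0.0039 to 0.243 for ARID1B, -0.125 to 0.427 for ARID2 and -0.0779 to 0.224 for SMARCC1, each lowest without siGYS1 replicate 1 and highest without siGYS1 replicate 2, -0.0592 to 0.0451 for SMARCA4 and -0.118 to 0.0080 for SMARCE1. The limma fits gave -0.0069 and -0.0081 for ARID2. SMARCA4 was at 0.000301 with no filter and 0.0017 in DESeq2. For sip53 against NC, ARID2 was at -0.167 to 0.0303 with 1 library left out. For siGYS1 against sip53, leaving out 1 library gave -0.0539 to 0.477 for ARID2 and -0.134 to 0.218 for PBRM1, and PBRM1 was at -0.0564 and -0.0568 with length correction, without and with the block. The 10 genes had 600 to 4371 reads each per library, and ARID1A, at 600 to 935, was among the lowest.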
